A study of Mus musculus with 12 samples.

Results

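The genes described here encode the hormones cholecystokinin (Cck), somatostatin (Sst), gastric inhibitory polypeptide (Gip), proglucagon (Gcg), secretin (Sct), peptide YY (Pyy) and neurotensin (Nts), the granins chromogranin A (Chga) and chromogranin B (Chgb), and the transcription factor Neurod1. They were taken as all the probe sets that the array's annotation gives to 1 of these 10 gene symbols. The symbols themselves were chosen with earlier results of these data known. The annotation gave 12 probe sets of the 12488 on the array to 8 of the 10 genes. Pyy and Nts had no probe set and were not measured here. Of the 8 genes, 7 passed the filter on dim probe sets and entered the main tests, and Neurod1 did not.

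The study compared normal intestine with tumors of male mice that were 91 days old and carried Min/+, a germline mutation of the tumor suppressor gene Apc that gives rise to intestinal adenomas. RNA of each sample was hybridised to 1 Affymetrix MG_U74Av2 array, 6 arrays of normal intestine and 6 of tumor. In each tissue, diets #1, #2 and #3 were each represented by 1 array of Dnmt+/- Min/+ and 1 of Dnmt+/+ Min/+, and a sample code joins each normal array to 1 tumor array, giving 6 pairs. All 12 samples carried Min/+, so intestine of mice without that mutation is no group here. The labels do not give the composition of the diets, the segment of intestine, the exact Dnmt allele, whether tissue was pooled, or whether arrays of a group came from separate animals. The p-values therefore measure the spread between these samples, which may be technical. On the 4 diet #1 arrays the deposited intensities are unscaled, and 40.9% to 46% of them stand at exactly 50, a floor in the file. The other 8 arrays have a mean intensity of 1000 each and no such floor. Diet #1 and this format cannot be told apart.

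Enteroendocrine cells are scattered hormone-secreting cells of the gut epithelium. They arise from crypt progenitors in which Notch signalling is low, through the transcription factor Neurog3 and then factors such as Neurod1. Each subtype releases its own peptides into the blood or the tissue in response to nutrients, and chromogranins and secretogranins pack those peptides into dense-core granules. Cck, Gip and secretin cells are most frequent in the proximal small intestine. Somatostatin is made by D cells, which dampen the release of other hormones, and also by islet cells of the pancreas and by neurons.

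Promoters are shown for Cck, Sst, Gip and Chgb, whose tissue differences were the largest among the 7 tested genes, because they were lower together. Their windows share some recognition letters and differ in others. Each window is the 250 bases before the RefSeq start site on GRCm38.p6, printed 5′ to 3′ on the gene's own strand. Capitals mark the cAMP response element TGACGTCA, its 5-base core TGACG on either strand, and the E-box CANNTG, the letters bound by Neurod1 and other basic helix-loop-helix factors. The Cck window lies at chr9:121495695-121495944 (minus strand), the Sst window at chr16:23890845-23891094 (minus strand), the Gip window at chr11:96024295-96024544 (plus strand) and the Chgb window at chr2:132781392-132781641 (plus strand).
Cck: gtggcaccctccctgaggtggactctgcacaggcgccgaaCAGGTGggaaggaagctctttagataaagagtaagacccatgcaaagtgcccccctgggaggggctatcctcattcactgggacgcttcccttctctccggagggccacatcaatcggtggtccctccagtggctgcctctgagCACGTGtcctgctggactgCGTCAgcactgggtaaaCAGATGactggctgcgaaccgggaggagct
Sst: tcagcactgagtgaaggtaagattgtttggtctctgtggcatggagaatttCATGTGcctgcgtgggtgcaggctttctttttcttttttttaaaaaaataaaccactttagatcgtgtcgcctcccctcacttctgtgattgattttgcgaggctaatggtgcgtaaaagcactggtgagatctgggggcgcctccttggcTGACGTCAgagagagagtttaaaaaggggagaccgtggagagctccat
Gip: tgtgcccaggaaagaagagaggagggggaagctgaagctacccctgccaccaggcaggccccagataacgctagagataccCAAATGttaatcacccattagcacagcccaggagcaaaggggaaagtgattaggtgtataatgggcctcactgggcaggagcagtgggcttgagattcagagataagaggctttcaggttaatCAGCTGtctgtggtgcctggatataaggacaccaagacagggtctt
Chgb: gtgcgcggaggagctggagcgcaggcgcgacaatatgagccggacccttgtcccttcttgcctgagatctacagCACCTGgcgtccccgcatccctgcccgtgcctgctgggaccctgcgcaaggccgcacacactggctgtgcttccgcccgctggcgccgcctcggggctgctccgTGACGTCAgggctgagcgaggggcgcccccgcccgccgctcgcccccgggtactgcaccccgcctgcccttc
The whole element TGACGTCA begins 48 bases before the Sst start and 72 bases before the Chgb start, and is found in 1.55% of 32851 promoter windows of the same length. The core TGACG, which lies inside that element, was found on its own in the Cck window, 47 bases before the start, and in the Chga window, 44 bases before it. It occurs in 17.8% of all windows. The Gip, Sct, Gcg and Neurod1 windows do not hold these letters. E-boxes are common, at 66.2% of all windows, and the windows of all 8 measured genes hold at least 1. The Cck window has 3, at -210, -66 and -30 from the start, and the Gip window has 2, at -169 and -46. These matches are descriptions of letters and not measured binding sites.

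Of the 7 tested genes, 5 fell in tumor and none rose: Cck, Sst, Gip, Chgb and Sct. Over all 6400 tested features, 16.9% were called lower in tumor and 18.2% higher (limma, Benjamini-Hochberg adjusted p under 0.05). The median log2 difference of the 7 genes was -1.17, against 0.00153 over all features. Because the genes were chosen with earlier results of these data known, this contrast is a description and not a test. Differences are tumor minus normal, as log2 of normalized intensity. The arrays hold whole tissue, so fewer cells of a type and less RNA per cell cannot be told apart.

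**Figure D1:**
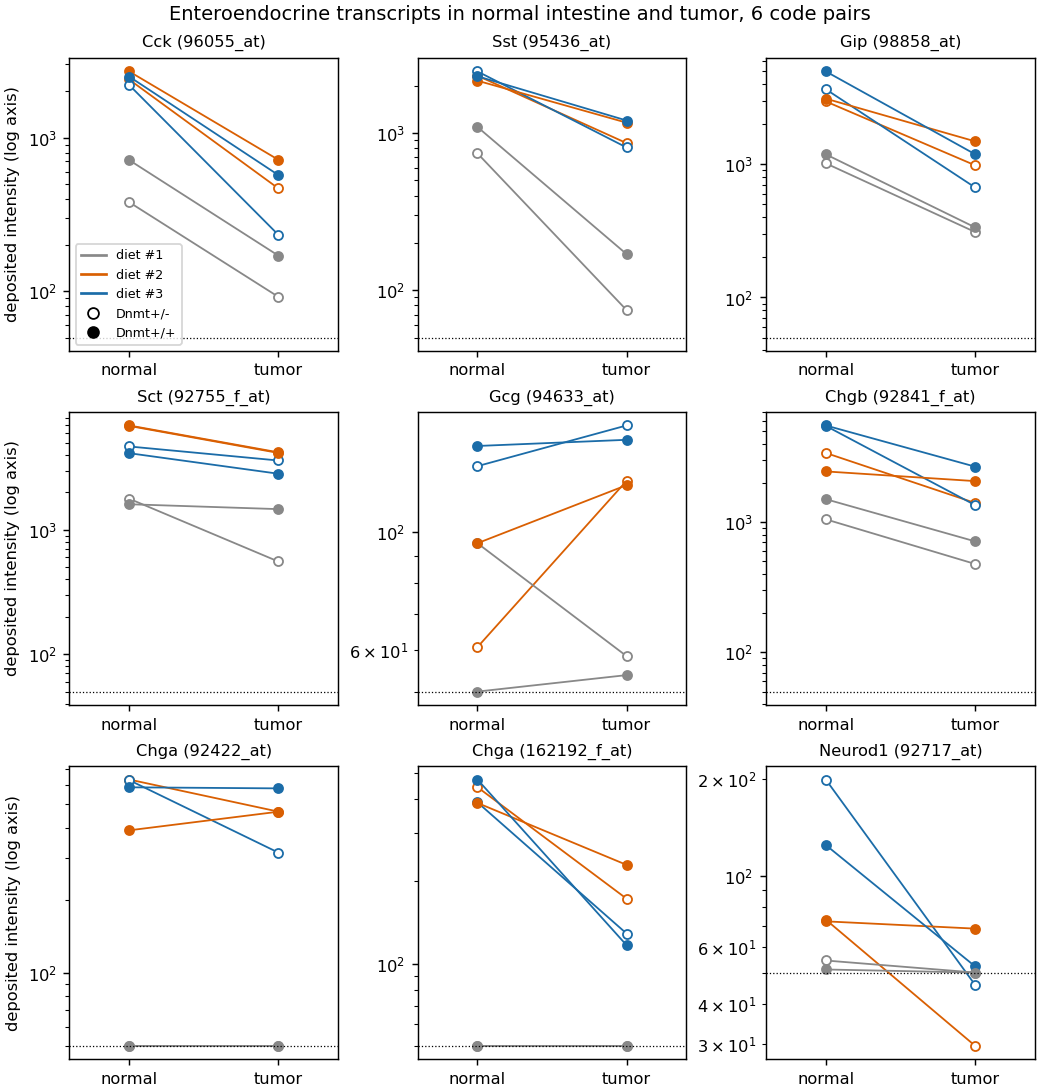
Deposited intensity (log axis) of 9 probe sets in normal intestine and tumor, 1 line per code pair, coloured by diet, with open circles for Dnmt+/- and filled circles for Dnmt+/+; the dotted line is the file floor of 50. The lines of Cck, Sst, Gip and Chgb slope down in all 6 pairs, while those of Gcg do not share a direction and both Chga sets lie at 50 on the diet #1 arrays.

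Cck, the duodenal hormone that contracts the gallbladder and stimulates pancreatic enzyme secretion, fell most. In normal intestine its deposited intensity was 380.4 and 715.1 in diet #1, 2391 and 2700 in diet #2, and 2204 and 2500 in diet #3, with Dnmt+/- first in each diet. In tumor it was 92.1 and 170.8, 467.7 and 718.4, and 233.3 and 571.4. Within each diet, both tumor arrays lay below both normal arrays. On the normalized log2 scale the means were 10.68 ± 0.40 in normal intestine and 8.28 ± 0.60 in tumor (SD, n = 6 each), without overlap. The tumor level was 9.56% of its paired normal level in diet #3 Dnmt+/- and 17.0% to 23.5% in the other 5 pairs. The estimated difference was -2.40 ± 0.17 (SE), a 5.29-fold fall (limma adjusted p = 1.9e-05), and it ranked 14 by size among the 1084 features called lower.

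Sst encodes somatostatin. Its intensity in normal intestine was 742.6 and 1093 in diet #1, 2315 and 2152 in diet #2, and 2466 and 2296 in diet #3. The tumor arrays read 74.7 and 169.6, 862.4 and 1163, and 809.1 and 1201. The normal arrays were close to one another after normalization (10.89 ± 0.14, SD, n = 6), whereas the tumor arrays spread widely (9.0 ± 0.87), and the 2 tissues did not overlap. The fall was 3.72-fold (-1.89 ± 0.30, limma adjusted p = 0.00133). Tumor levels were 9.73% and 14.4% of normal in diet #1 and 32.5% to 54.3% in diets #2 and #3, so that without the diet #1 arrays the fall was 2.47-fold (-1.30 ± 0.15, limma adjusted p = 0.00113). The test of a tissue difference that varies with diet gave adjusted p = 0.0649 for Sst, with 1.48% of features called. It passed when values were used as deposited (adjusted p = 0.0305), with the intensity floor at the 40th or the 50th percentile (0.0467 and 0.0321), with trended robust variances (0.042) and without the diet #1 Dnmt+/+ tumor array (0.0358). The 12 leave-one-array-out fits ranged from 0.0358 to 0.202.

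Gip, an incretin that raises insulin secretion after a meal, fell in every pair. Normal intestine read 1019 and 1191 in diet #1, 2974 and 3120 in diet #2, and 3672 and 4998 in diet #3. Tumor read 310.8 and 336.8, 985.8 and 1491, and 672.2 and 1194. The tissues did not overlap within any diet or on the normalized scale (11.41 ± 0.24 against 9.55 ± 0.39, SD, n = 6 each). The tumor level was 18.0% to 42.4% of its pair's normal level, a 3.62-fold fall (-1.86 ± 0.18, limma adjusted p = 9.79e-05).

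Sct encodes secretin, which stimulates bicarbonate secretion by the pancreas. Its brightest probe set, 92755_f_at, read 1608 to 6919 in normal intestine (median 4414) and 556.6 to 4206 in tumor (median 3222), and the tissues overlapped. It was lower in tumor in 6 of 6 pairs, at 31.5% of normal in diet #1 Dnmt+/- and 63.2% to 92.0% in the others. The fall was 1.56-fold (-0.65 ± 0.19, limma adjusted p = 0.0259). This call was lost, at adjusted p = 0.0516 to 0.0581, in 7 of the 12 fits that left out 1 array: the diet #1 Dnmt+/- normal array, any of the 4 diet #2 arrays, the diet #3 Dnmt+/- normal array or the diet #3 Dnmt+/+ tumor array. A second set, 92756_r_at, was lower in 5 of 6 pairs (-0.40 ± 0.10, limma adjusted p = 0.0237 in a fit of every probe set without a filter). The dimmest set, 162163_at, read at most 94.4 on any array and was not called (-0.39, adjusted p = 0.113).

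Gcg, the precursor of glucagon in islets and of GLP-1 in the gut, did not differ beyond the spread between arrays (0.18 ± 0.34, limma adjusted p = 0.717). It was dim throughout, at 50 to 145 in normal intestine and 53.7 to 158.4 in tumor. Values near 50 on the diet #1 arrays jump across the file floor in the normalization: 50 against 53.7 in the Dnmt+/+ pair became a difference of 1.4 on the log2 scale. Without the diet #1 arrays the difference was 0.10 ± 0.14 (limma adjusted p = 0.627).

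Chgb, a granule protein of neuroendocrine cells, fell 2.24-fold (-1.17 ± 0.18, limma adjusted p = 0.00105). Its bright probe set, 92841_f_at, read 1052 and 1503 in normal intestine of diet #1, 3403 and 2454 in diet #2, and 5493 and 5533 in diet #3. Tumor read 478.1 and 712.9, 1406 and 2068, and 1355 and 2673. Tumor was below normal in 6 of 6 pairs, from 25.6% of normal in diet #3 Dnmt+/- to 76.6% in diet #2 Dnmt+/+, and the tissues overlapped slightly across pairs. A second set, 92842_r_at, stayed at or near the floor, at 26.3 to 65.3, and was not called (adjusted p = 0.307).

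Chga, the most widely used marker of enteroendocrine cells, gave different answers from its probe sets. The set 92422_at, which stood for the gene, read 633.6, 390.1, 630.0 and 588.1 in the normal arrays of diets #2 and #3 and 466.4, 465.9, 315.5 and 582.1 in tumor, so the tissues overlapped. Its difference was -0.38 ± 0.19 (limma adjusted p = 0.16), and -0.55 ± 0.24 without diet #1 (adjusted p = 0.12). The set 162192_f_at read 387.9 to 472.8 in normal intestine and 116.7 to 230.0 in tumor on the same 8 arrays, without overlap. It was called in the fit of every probe set (-1.14 ± 0.30, limma adjusted p = 0.0288) and, at 3.23-fold, without diet #1 (-1.69 ± 0.18, adjusted p = 0.00911). Both sets stood at 50 on all 4 diet #1 arrays, so those arrays give no difference. The suffix _f is Affymetrix's mark for sets whose probes can match related sequences, and which of the sets reports Chga was not tested. The bright sets behind the called falls of Chgb and Sct carry the same suffix. Whether their probes match related sequences was not tested either.

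Neurod1, which acts in late enteroendocrine differentiation, was dim, at 51.1 to 199.2 in normal intestine and 29.6 to 68.5 in tumor. Tumor was below normal in 6 of 6 pairs. In the fit of every probe set the difference was -1.20 ± 0.21 (limma adjusted p = 0.00492). Without diet #1, where deposited values of 54.5 and 51.1 met 50 in tumor, it was -1.01 ± 0.30 and not called (adjusted p = 0.105).

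**Figure D2:**
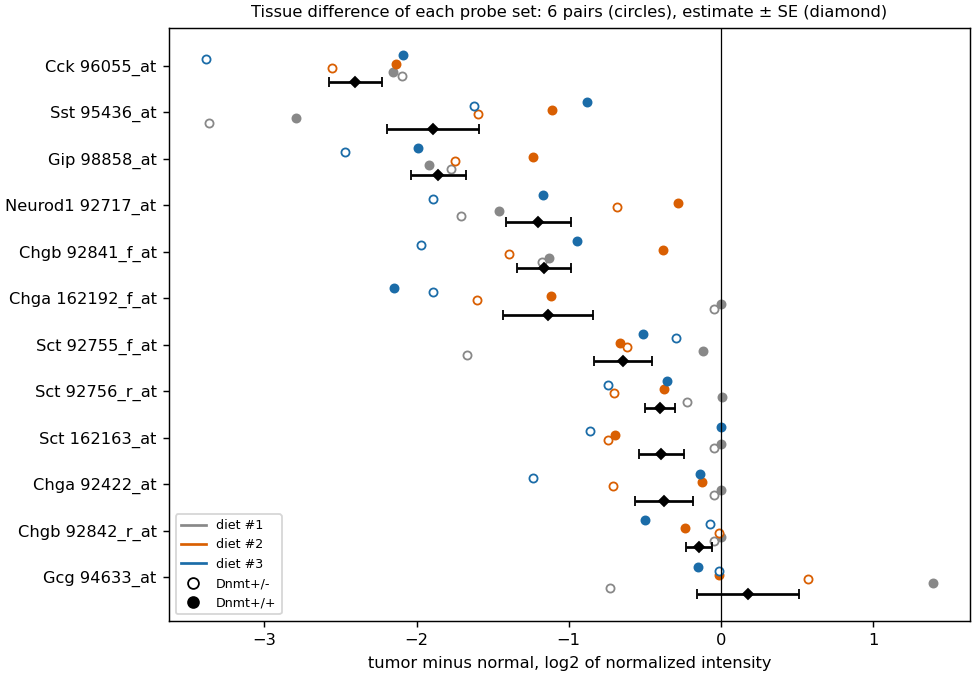
Tumor minus normal (log2 of normalized intensity) for all 12 probe sets, with 6 circles for the code pairs, coloured by diet, open for Dnmt+/- and filled for Dnmt+/+, and a diamond with its SE for the limma estimate. Cck lies farthest to the left at -2.40 and Gcg is the only set with an estimate above 0, at 0.18; the grey circles of Sst lie to the left of its other circles.

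The sizes of the falls were compared within pairs for the 5 called genes, 10 comparisons in all, by exact sign-flip tests over 6 pairs (2-sided), whose smallest possible p is 0.0312. Cck fell more than Gip, Chgb and Sct in 6 of 6 pairs, by 0.55, 1.24 and 1.76 on the log2 scale. Gip fell more than Chgb and Sct in 6 of 6 pairs, by 0.69 and 1.21, and Sst more than Sct, by 1.25. Each of these 6 comparisons had exact p = 0.0312 and 0.0521 after Benjamini-Hochberg adjustment, and none passed 0.05. Sst and Gip differed by 0.04 ± 1.03 (SD over 6 pairs, exact p = 0.969), less than the spread between pairs.

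Across the 12 arrays, after centring on each diet, Cck, Gip and Chgb followed one another closely (Pearson r = 0.96 to 0.97), and Sst had r = 0.86 to 0.87 with each of them. Gcg had r between -0.24 and -0.01 with the other 6 genes. These correlations run over both tissues and so contain the tissue difference, and the arrays share their normalization. By the same measure the non-member genes most like Cck were Pklr (0.993), a pyruvate kinase, Adh1 (0.986), an alcohol dehydrogenase, and Prxl2a (0.984). Those most like Gip were Slc25a15 and Epn1 (0.989 each) and Slc4a5 (0.983), those most like Sst were 0610005C13Rik (0.979), Mterf2 (0.978) and Siae (0.976), and those most like Chgb were Ccl25 (0.983), H2-Ke6 and Lpgat1 (0.980 each). Sct was most like Mtss2 (0.956), Crat (0.945) and Ube2l6 (0.941), Chga most like Frat1 (0.938), and Gcg most like Zfp277 (0.952).

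The comparison of Dnmt+/- with Dnmt+/+ called none of the 7 genes, and 0.0469% of all features, which is 3 of 6400. Cck had the largest difference of the genes called in the tissue comparison, at 66.9% of the Dnmt+/+ level (-0.58 ± 0.15, limma adjusted p = 0.672, sample code as a random block). It was lower in Dnmt+/- in 6 of 6 comparisons matched for tissue and diet: at 68.9%, 85.3% and 90.6% of Dnmt+/+ in normal intestine of diets #1, #2 and #3, and at 71.7%, 63.7% and 36.8% in tumor. The normal and the tumor comparison of a diet use the same sample codes, so these 6 are not separate replicates. Sst was at 59.6% to 73.6% in the 3 tumor comparisons and 88.3% to 110% in normal intestine. Whether the tissue difference varied with genotype was tested for all features, and 0 of 6400 were called (percent called 0), with 139 at an unadjusted p under 0.05. The estimates for the 7 genes ran from -0.69 for Chgb to -0.28 for Gip (limma adjusted p = 1 for Chgb). Some of them depended on single arrays. Gip was 0.02 without the diet #3 Dnmt+/- tumor array, and Sct moved from -0.43 to -0.08 without the diet #1 Dnmt+/- tumor array. Gcg, which did not fall in tumor, moved from -0.47 to 0.18 and 0.31 without the Dnmt+/- and the Dnmt+/+ normal array of diet #1. With an array left out, Chgb ran from -0.83 to -0.46, Cck from -0.75 to -0.27, Sst from -0.98 to -0.19 and Chga from -0.80 to -0.22. None of these was called.

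Between diet #3 and diet #2, which share 1 file format, 9.28% of features were called and none of the 7 genes. Chgb was 1.43-fold higher in diet #3 (0.52 ± 0.19, limma adjusted p = 0.119), and passed at 0.022 without the diet #3 Dnmt+/- tumor array. Sct was 1.39-fold lower (-0.48 ± 0.20, limma adjusted p = 0.179), and passed at 0.0342 without the diet #1 Dnmt+/- tumor array. Against diet #1, 54.3% of features were called for diet #2 and 55.9% for diet #3. Chga was called in both (2.98 and 3.13 on the log2 scale), set by the diet #1 arrays at 50, and Cck was called in diet #2 against diet #1 alone (0.65 ± 0.18, limma adjusted p = 0.0151). These counts cannot be told apart from the change of file format.

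Beyond the hormones, other products of dense-core granules were measured. Of 8 tested genes of granule processing and cargo, 3 fell and 1 rose, with a list median of 0.14. Scg2, a secretogranin, fell 2.39-fold (-1.26 ± 0.24, limma adjusted p = 0.00301). The 2 sets of Scg3, another secretogranin, were dim, at most 33.1 and 108.6 on the diet #2 and #3 arrays. Neither was called in the fit of every probe set (limma adjusted p = 0.915 and 0.663), and the first lay under the analysis floor. Pcsk1, the convertase that cuts prohormones, fell 1.98-fold, and Cpe, which trims the cut peptides, fell 1.59-fold (adjusted p = 0.0054 and 0.00443). The set that stood for Cpe has the suffix _f too, and matches to related sequences were not tested. The other Cpe set, without that suffix, was also lower (-0.48, limma adjusted p = 0.0369 in the fit of every probe set). Rab3d, a GTPase of secretory vesicles in exocrine and other cells, rose 2.04-fold. Pcsk1 stood at the file floor on the 2 diet #1 tumor arrays, against 50.9 and 74.8 in normal intestine. Such values jump across the floor in the normalization, which widens the fall. On the diet #2 and #3 arrays Pcsk1 read 114.3, 114.4, 220.6 and 181.2 in normal intestine. The paired tumor arrays read 98.6, 86.3, 128.1 and 154.9. Scg2 stood at the file floor on 1 array.

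Enterochromaffin cells make serotonin, and 2 of 4 tested genes of that list fell. The transporter gene Slc6a4 fell 2.18-fold (-1.12 ± 0.17, limma adjusted p = 0.000958) and Ddc, the decarboxylase that completes serotonin synthesis, 2.07-fold (adjusted p = 0.000229). Ddc and Slc6a4 are also active in absorptive epithelium. Tph1, the rate-limiting enzyme of serotonin synthesis in enterochromaffin cells, read 359.8, 322.7, 218.1 and 213.6 in normal intestine of diets #2 and #3 and 183.9, 174.2, 118 and 99.3 in tumor. Its main estimate was -0.19 and not called, with 2 normal arrays of diet #1 at the file floor.

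Of 6 tested transcription factors of the enteroendocrine list, 3 rose and none fell. Foxa1 rose 5.65-fold, Foxa3 2.79-fold and Sox4 1.79-fold (limma adjusted p = 0.00179, 0.00648 and 0.013), and all of them act in other gut cells too, goblet cells and progenitors among them. Neurog3, the factor that starts the lineage, read at most 12.1 on the 8 arrays without a floor. Nkx2-2, which acts downstream of it, read 150.1, 141.6, 177.3 and 113.7 in normal intestine and 71.2, 76.0, 73.5 and 69.1 in tumor on those arrays, without overlap (limma adjusted p = 0.0292 in the fit of every probe set). In that fit the other lineage factors Pax6, Insm1 and Pax4 were not called (limma adjusted p = 0.69, 0.706 and 0.568). Isl1, Myt1 and Neurog3 read at most 32.3, 33.5 and 12.1 on those 8 arrays and 50 on the diet #1 arrays. These values lie at or under the floors, so the fit could not show a difference for them (adjusted p = 0.915 each). Of 13 tested Notch pathway genes, 3 fell and 2 rose. The ligand Dll1 fell 2.80-fold and Numb, an inhibitor of Notch, 1.76-fold, while Hey1 and Hes6 rose 1.88-fold and 1.61-fold. Hes6 is a member of the Hes family that opposes Hes1.

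Of 7 tested receptors and peptidases that meet these hormones, 2 fell: Mme, the neprilysin of the brush border, 3.94-fold, and Cckbr, a receptor for gastrin and Cck, 1.28-fold (limma adjusted p = 9.54e-05 and 0.048). Among 3 tested nutrient-sensing genes, the glucose transporter genes Slc2a2 and Slc5a1 fell 4.84-fold and 2.49-fold, and the G protein gene Gnai2 rose 1.36-fold. None of 5 other tested gut hormone and peptide genes was called, and their median was 0.12.

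**Figure D3:**
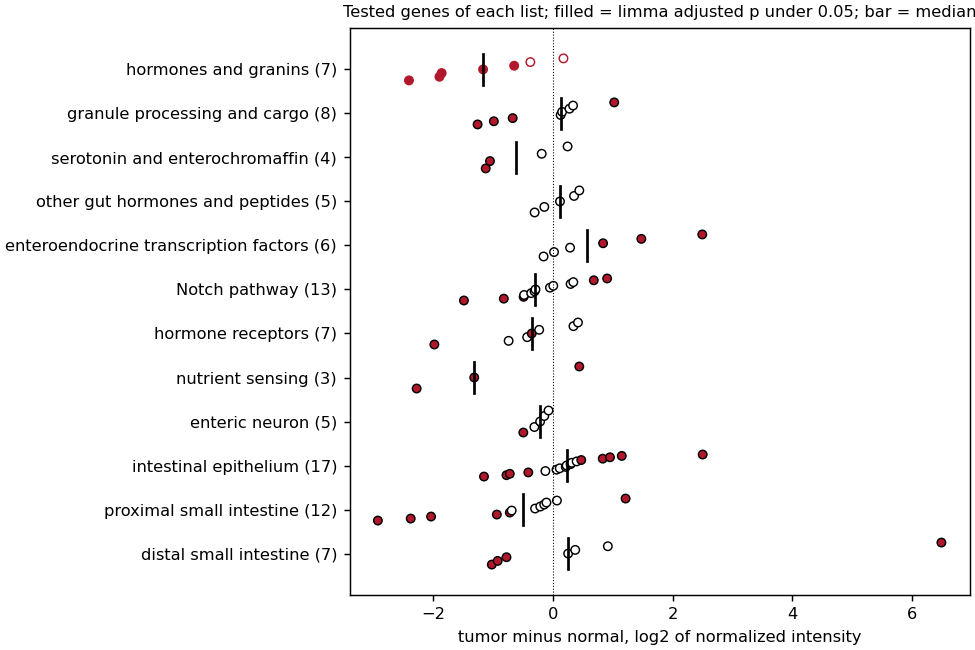
Tumor minus normal (log2 of normalized intensity) of each tested gene, by list, with the number of tested genes in brackets; filled points passed limma at adjusted p under 0.05 and the bar is the list's median. The hormones and granins have their median at -1.17, the transcription factors at 0.56 and the epithelial markers at 0.23.

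Markers of neighbouring cells and of position along the gut moved beside these falls. The epithelial list was not lower as a whole (6 of 17 rose, 4 fell, median 0.23). Krt18 was 5.67-fold, Krt19 2.22-fold and Lgals3 1.94-fold higher, and Guca2b was 2.22-fold lower. Of 12 tested genes of the proximal small intestine, 5 fell and 1 rose. Slc2a5 was 7.58-fold, Slc46a1 5.19-fold and Adh1 4.09-fold lower, and Car4 was 2.32-fold higher. Of 7 distal genes, 3 fell and 1 rose. Ccl25 was 2.03-fold, Cbr1 1.89-fold and Muc13, also on the epithelial list, 1.71-fold lower. The ileal bile acid binding gene Fabp6 was 90.0-fold higher in tumor. The segments that the tumors and the normal tissue came from were not given, and the part of position along the gut in the hormone values was not tested. Of 5 tested enteric neuron markers 1 fell, Stmn2 at 1.41-fold, with a median of -0.21 and summed intensities of 1499 to 4542 in normal intestine and 1566 to 3934 in tumor. The brightest, Tubb3, differed by -0.07 ± 0.12, Stmn2 by -0.49 and Uchl1 by -0.21 ± 0.14.

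The 2 normal arrays of diet #2 carried transcripts of the pancreas, an organ whose islets also make somatostatin and glucagon. The brighter probe set of Ins2, the insulin gene of islet beta cells, read 1221 and 3926 there, at most 14.0 on the other 6 arrays of diets #2 and #3, and 50 on the diet #1 arrays. The other Ins2 set was dim, at 17.4 and 40.6 there and up to 28.1 on those 6 arrays. Iapp, also of beta cells, read 78.0 and 158.7 there and at most 23.2 on those 6 arrays. The brighter probe set of Ppy, a hormone gene of the islet list, read 396.5 and 392.2 there and 251.5 to 467.2 on those 6 arrays. Its other set read 146.6 and 288 there and 138.1 to 256.2 on those 6 arrays. The summed intensity of the 15 tested exocrine pancreas genes was 371650 and 463620 on these arrays, 15986 to 48866 on the other normal arrays and 15244 to 40330 on the tumor arrays. The brightest of that list were Zg16, also a goblet cell product, Reg1 and Clps, of which only Reg1 was called (4.60-fold lower in tumor). It was lower in 5 of 6 pairs, and its other set was not called in the fit of every probe set (-0.615, limma adjusted p = 0.271). Over the 15 genes 1 fell, with a median of -2.0. Over the 6 tested islet-list genes 2 fell (Slc2a2 and Ttr) and 1 rose (Sytl4). The called Sytl4 set stood at 50 on both diet #1 normal arrays, against 80 and 82.5 in tumor. Its other set was not called in the fit of every probe set (0.133, limma adjusted p = 0.454). Slc2a2, Ptprn and Ppy were the brightest of that list, and Ptprn and Ppy were not called (limma adjusted p = 0.558 and 0.504). Sst, at 2315 and 2152, and Gcg, at 60.6 and 95.1, were not higher on these arrays than in diet #3 normals, at 2466 and 2296 and at 132.8 and 145.0. Gip and Chgb were lower there than in diet #3 normals. Sct was higher, at 6919 and 6860 against 4688 and 4140 in its brightest set and 6288 and 5253 against 4213 and 4043 in 92756_r_at, and Cck was slightly higher, at 2391 and 2700 against 2204 and 2500. The part of pancreas RNA in the Sct and Cck values was not tested. Without the diet #2 arrays, Cck, Sst, Gip and Chgb fell by 2.43, 2.17, 2.04 and 1.3 on the log2 scale (limma adjusted p = 0.0035, 0.0176, 0.00423 and 0.00932), and Sct by 0.65 with the call lost (adjusted p = 0.166).

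**Figure D4:**
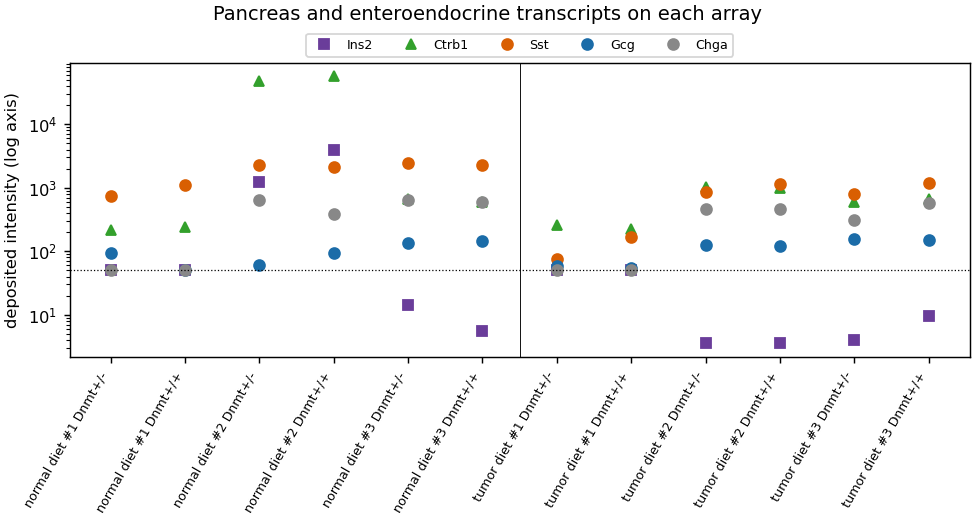
Deposited intensity (log axis) of Ins2, the exocrine gene Ctrb1, Sst, Gcg and Chga on each of the 12 arrays, normal intestine at left and tumor at right; the dotted line is the file floor of 50. Ins2 and Ctrb1 stand high on the 2 normal arrays of diet #2 alone, where Sst, at 2315 and 2152, lies close to its diet #3 normal values.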

How the data were processed

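The 6 normal and 6 tumor samples were each hybridised to a single-colour MG_U74Av2 array. The authors deposited an intensity on a linear scale for each probe set; how the probes were summarised was not given in the sources used here, and arrays differ in scaling and floor as described. With 66 control probe sets left out, the other 12422 were quantile normalized, raised to the 20th percentile (44.8) where lower, and put on the log2 scale. Dropping the lowest 40% by mean and keeping the brightest set per gene left 6400 features. The normalization and both floors shrink or set the differences of dim probe sets, so deposited intensities are printed beside them. A fit of all 12422 sets without a filter covers the other member probe sets.

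limma 3.58.1 (R 4.3.3) fitted tissue with diet and genotype. Genotype, diet and interactions used the sample codes as random blocks (correlation -0.16, and 0.038 for tissue by diet). P-values were Benjamini-Hochberg adjusted over all features, with a threshold of 0.05. The scripts were tested on simulated data. Alternatives covered scaling, floor, filter, probe sets, variances, blocks, subsets of arrays and each array left out. The number of arrays limits the precision.

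The members and gene lists were chosen with earlier results of these data known. All member probe sets are reported. For each list up to 4 called genes with the largest difference are named, for pancreas, islet and neuron lists also the 3 brightest, and for likeness the genes with the highest correlation. The cell type markers named outside that rule come from a marker list, apart from some lineage factors. Insm1, Pax4, Isl1, Myt1 and Pdx1 were named from the list of enteroendocrine transcription factors. Promoters are those of RefSeq, assembly GRCm38.p6, matched by symbol.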

Additional observations from a re-analysis of the deposited data

Results flagged for a closer look

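The second Chga probe set, 162192_f_at, had a tissue difference that varied with diet (interaction -1.997 for diet #3 against diet #1, limma adjusted p = 0.0133 in the fit of every probe set); its 4 diet #1 arrays stood at 50. Among the 6 tumor arrays, that of diet #2 Dnmt+/+ stood apart for Neurod1 (92717_at), at 5.92 on the normalized log2 scale with a gap of 0.752 of the group's range. For the dimmest Sct probe set, 162163_at, the diet #1 Dnmt+/- tumor array stood apart at 5.565, with the other 5 tumor arrays at the floor of the analysis. Its deposited value was 50, the file floor, so this gap lies between the 2 floors and is no signal. Chance marks about 1 group in 20 in this way where no value stands at a floor. The Neurod1 and Sct tumor groups both hold arrays at the floors, so that rate does not apply to them.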

How the results depend on the processing

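The falls of Cck, Sst, Gip and Chgb kept their call in 12 of 12 fits that left out 1 array and under every scaling, floor and filter tried. The count of member genes called lower was 4 to 5 with an array left out, where 888 to 1054 of 6400 features were called lower. It was 0 within diet #1, and 2 within diet #3, within Dnmt+/- and within Dnmt+/+. The counts over all features in these subsets come next. The number of features called for tissue, 2251, was 1879 to 2178 with an array left out, 1286 without diet #2, 1245 without diet #3, 1419 within diet #2, 495 within diet #3, 153 within Dnmt+/-, 353 within Dnmt+/+, 1343 at a threshold of 0.01 and 0 within diet #1, where 1100 features had an unadjusted p under 0.05. These subsets hold fewer arrays. Median scaling called 847 features higher and 1551 lower, and values as deposited 1358 and 729; the median of all features moved to -0.10 and 0.13, and the 5 genes fell under both. With the sample codes as a replicate block, 2105 features and 5 members were called, and the paired fit changed no member's call. In diet #2 against diet #1, member calls were 6 of 6 tested with values as deposited, where 92.5% of all features were called, 1 of 5 with the lowest 60% left out (56.5% of all) and 2 to 4 of 7 with an array left out (47.5% to 57.6%), and the Chgb difference of -0.21 turned to 1.37 with values as deposited, which keep the difference in scale. In diet #3 against diet #1 they were 6 of 6 (91.2% of all features), 0 of 5 (57.9%) and 1 to 3 of 7 (48.1% to 57.6%), and 2 of 7 within tumor (26.3%). For diet #3 against diet #2 they were 0 to 1 of 7 with an array left out (2.34% to 14.4% of all features). In tissue by diet they were 1 with values as deposited (3.22% of all features) and with trended robust variances (1.2%). The floor at the 40th or 50th percentile also gave 1 (1.56% and 2.03%). Through the second Chga set, so did every probe set with or without a filter (1.34% and 2.17%). With an array left out they were 0 to 1 (0.766% to 4.89%). The floor at the 50th percentile and the fits of every probe set without a filter were added after the data were seen. Signal over background limits Gcg, Neurod1 and the dim second probe sets.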

Other observations

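One of the 2 probe sets of ghrelin (Ghrl), a hunger hormone of X/A-like cells, named here after its values were seen, read 149.1, 81.8, 160.8 and 243.8 in normal intestine of diets #2 and #3 and 18.6, 19.8, 17.5 and 23.5 in tumor. It was lower in tumor in the fit of every probe set (-1.04, limma adjusted p = 0.044), while the other set read 63.0 to 92.8 in normal intestine and 54.3 to 136.2 in tumor and was not called (adjusted p = 0.71). Both stood at 50 on all diet #1 arrays. Scg5, a granule chaperone also named after its values were seen, read 76.8 to 91.9 in normal intestine and 55.8 to 69.8 in tumor of diets #2 and #3 and just missed the threshold (-0.37, adjusted p = 0.0504). Pdx1, a factor of pancreas and duodenum, read 568.5 and 447.8 on the diet #2 normal arrays and at most 56.6 on the other arrays, those of diet #1 standing at 50.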
